A study of Mus musculus with 9 samples.

Results

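The comparison described here is between mouse CD8+ T cells that had been cultured with stromal cells without taking up detectable labelled mitochondria and T cells cultured alone. It was taken from a table of raw RNA-seq counts by library title: the 3 libraries titled MitoNegative co-culture and the 3 titled monoculture, 6 of the 9 libraries of the series. The study asked what transfer of mitochondria from stromal cells does to T cells, and the other 3 libraries hold the DsRed-positive recipient cells. They entered the statistical model, to estimate the spread, and the principal components, and are not described.

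All libraries were made from spleen CD8+ T cells of Pmel Ly5.1 mice, a strain whose CD8+ T cells carry a transgenic T-cell receptor against a melanocyte antigen. The MitoNegative cells had spent 36 h with DM5, an immortalized line of bone marrow mesenchymal stromal cells of BL6 origin whose mitochondria carried the red protein DsRed, and were then sorted as CD8+ and DsRed-negative. DsRed-negative means that no labelled mitochondria were seen by the sorter, and DM5 is a single immortalized line. The monoculture cells are labelled as a control without co-culture, and their own labels do not describe a sort. If they were not sorted, co-culture and sorting cannot be told apart in any difference given below. Every title also carries "0hr", which the labels do not explain. Libraries carry the letters B, C and D, 1 of each letter per group. Nothing states that the letters are separate animals or cultures, so a p-value here reflects only how much these libraries vary, and that variation may be technical. The total RNA was depleted of ribosomal RNA before sequencing.

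The 6 libraries held between 59264244 and 70750494 gene counts. Identity was checked on 20 genes of the T-cell receptor complex and CD8 coreceptor, which summed to 14487 to 16522 CPM (counts scaled to library size, here with edgeR's TMM factors) in monoculture and 12704 to 13259 CPM in MitoNegative cells. In Cd8a, which encodes the CD8 alpha chain, the monoculture libraries had 1253, 1066 and 1204 CPM (letters B, C and D) and the MitoNegative libraries 1319, 1302 and 1189 CPM. Those ranges overlapped. Along the first principal component of all 9 libraries, which held 73% of their variance, monoculture lay at -39.1 to -36.9 and MitoNegative cells at 13.0 to 19.1.

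A resting CD8+ T cell recirculates between blood and lymphoid organs under transcription factors such as Klf2 and Tcf7, and on stimulation it gives up that program, makes granzymes and interferon-gamma and shifts towards glycolysis. Mesenchymal stromal cells support hematopoietic cells in the bone marrow and act on T cells through contact, cytokines, prostaglandins and competition for nutrients. Type I interferon, p53 and ATF4 each drive a well-known set of target genes, so that such sets can be read from RNA as groups.

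Of 15711 genes tested, 3233 were higher in MitoNegative cells than in monoculture, which is 20.6% of genes tested, and 2877 were lower, which is 18.3%. The test was edgeR's quasi-likelihood test with Benjamini-Hochberg adjusted p under 0.05. A stricter test, against a 2-fold change instead of no change, called 517 genes higher (3.29%) and 105 lower (0.668%). The larger changes were thus mostly rises, and the median log2 fold change over all genes tested was 0.0093. Of the 517 large rises, 148 had a mean above 7.45 CPM in MitoNegative cells, the level of the most abundant stromal marker among those nearly silent in monoculture. That level comes from 1 list and is not an upper limit for stromal RNA. On the list of stromal cytokines, Cxcl10 went from a mean of 0.529 CPM in monoculture to 16.9 CPM in MitoNegative cells. Gene lists are given below as counts of members that passed the first test, to be read against 20.6% and 18.3%.

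**Figure D1:**
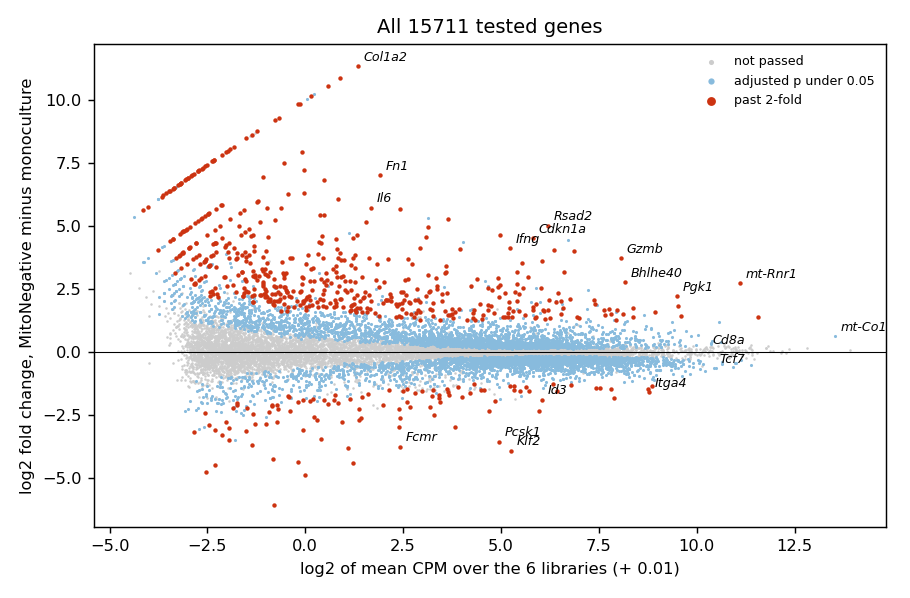
Each point is 1 of the 15711 genes tested, by mean level over the 6 libraries (log2 of CPM + 0.01) and log2 fold change of MitoNegative cells over monoculture. Rises past 2-fold (517) outnumber falls past 2-fold (105), and the diagonal edge at the upper left is formed by genes with no count in monoculture.

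**Figure D2:**
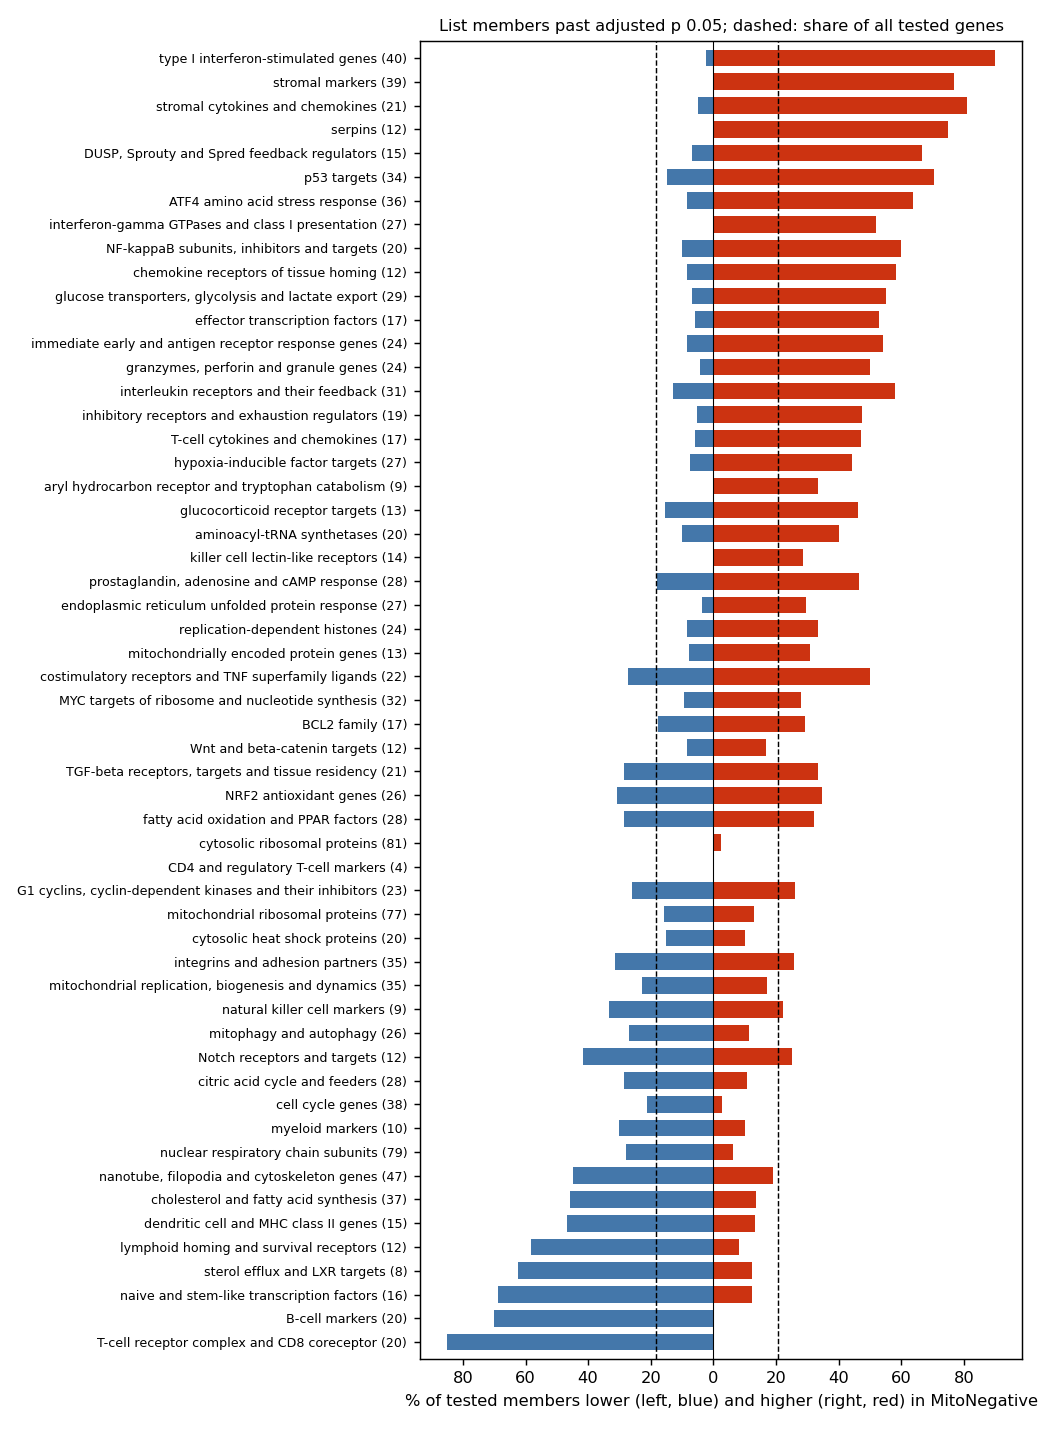
Bars give, for each gene list with its number of tested members, the percentage called higher (right) and lower (left) in MitoNegative cells. Dashed lines mark the shares over all genes tested, 20.6% and 18.3%. Interferon-stimulated genes (90%) lie at the upper end and genes of the T-cell receptor complex (85% lower) at the lower end.

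RNA of other cell types differed between the groups. Of 39 tested stromal marker genes, 30 were higher in MitoNegative cells and none lower, 26 of them past 2-fold, with a median log2 fold change of 4.88 (4.10 with the 12 genes that had no monoculture count set at their bound of 3 counts per group). Those 12 passed the expression filter only through co-cultured libraries and could not be lower, which raises the share of rises. A further 11 markers fell below the filter. Col1a2, a chain of type I collagen, had no count in any monoculture library and 6.92, 6.06 and 2.21 CPM in MitoNegative cells, at least 307-fold higher. Fibronectin, Fn1, had 0.0819, 0.0665 and 0.0166 CPM in monoculture and 9.04, 9.65 and 3.66 CPM in MitoNegative cells, a log2 fold change of 7.03 ± 0.815 (SE). In neither gene did the groups overlap, which was a condition of the rule that named the largest rises. The 31 stromal markers with a mean under 1 CPM in monoculture, a subset chosen after the values were seen, summed to 1.26, 1.68 and 2.25 CPM in monoculture and to 54.2, 65.1 and 24.3 CPM in MitoNegative cells. Libraries B and C thus carried more of this RNA than library D. The other 8 markers are expressed by T cells as well, and with them the whole list summed to 1413 to 1890 CPM in monoculture and 1589 to 1626 CPM in MitoNegative cells, ranges that overlapped.

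Cytokines and chemokines known from stromal cells moved the same way: 17 of 21 tested were higher and 1 lower. Here 4 genes had no monoculture count, so they too passed the filter only through co-cultured libraries, and 11 fell below it. Il6, which encodes interleukin-6, had 0.0492, 0.266 and 0.0331 CPM in monoculture and 4.08, 9.61 and 5.11 CPM in MitoNegative cells (log2 fold change 5.74 ± 0.665). Ccl2, a monocyte attractant named after its values were seen, had no count in monoculture and 4.58, 4.35 and 2.15 CPM in MitoNegative cells. Both are low in absolute level, and every one of the 3 libraries showed them. Of these cytokine genes called higher, 13 of 17 were at or below 7.45 CPM in MitoNegative cells. The part of stromal RNA in the other rises at low level was not tested.

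B-cell transcripts moved the other way. Of 20 B-cell markers, 14 were lower, 7 of them past 2-fold, and none was higher. Summed, these markers stood at 958, 929 and 1047 CPM in monoculture and at 635, 685 and 583 CPM in MitoNegative cells. Cd22, an inhibitory receptor of B cells, had 7.77, 9.94 and 10.3 CPM in monoculture and 0.907, 1.39 and 1.27 CPM in MitoNegative cells, a log2 fold change of -2.97 ± 0.271 (adjusted p = 1.13e-05). Fewer cells of a type and less RNA per cell cannot be told apart in these bulk samples. Nor can co-culture be told apart from the CD8+ sort, which the monoculture labels do not describe. Fcmr (-3.75), Fcrla (-2.62) and Cd79a (-2.48), an IgM receptor, an Fc receptor-like protein and a chain of the B-cell receptor, stood with Cd22 among the 12 largest named falls. Of 15 dendritic cell and class II genes 7 were lower and 2 higher. The class II gene H2-Aa had 20.9, 25.2 and 28.5 CPM in monoculture and 2.44, 4.05 and 3.13 CPM in MitoNegative cells (-2.95 ± 0.268). Zbtb46, from the dendritic cell part of the list, rose (1.67 ± 0.209), from a mean of 1.15 CPM in monoculture to 3.68 CPM in MitoNegative cells. Myeloid markers (1 of 10 higher, 3 lower) and natural killer markers (2 of 9 higher, 3 lower) were mixed. Of the 4 CD4 and regulatory T-cell markers, Cd4 had 1.05, 1.73 and 3.39 CPM in monoculture and 0.878, 0.888 and 1.53 CPM in MitoNegative cells and did not pass (adjusted p = 0.12), nor did the other three. When monoculture B, monoculture C or MitoNegative C was left out, 1 of those 4 was lower. With letter C left out 4 dendritic cell and class II genes were lower and 1 higher, and without letter D 2 myeloid markers passed. Natural killer markers gave 2 without MitoNegative B, letter B or letter C and 3 without MitoNegative C.

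**Figure D3:**
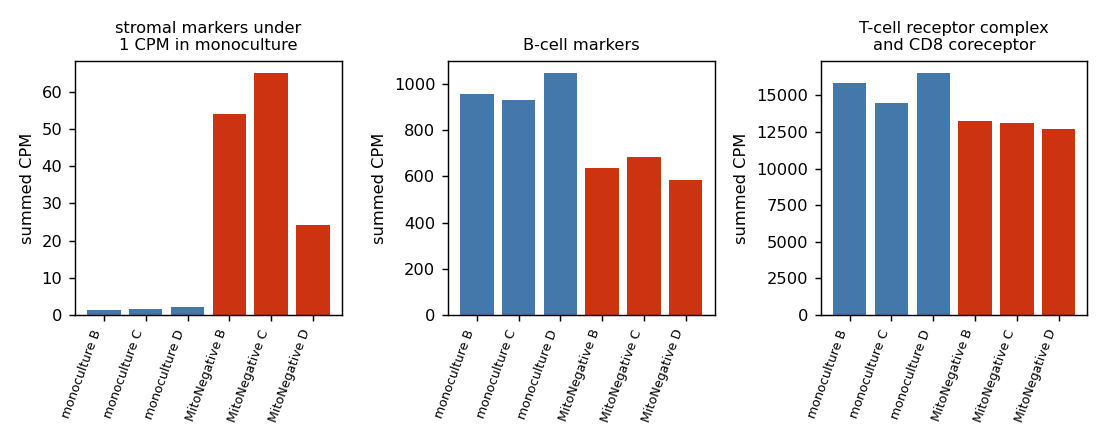
Bars give the summed CPM of 3 marker lists in each of the 6 libraries, each panel from 0, with the stromal list as the 31 markers under 1 CPM in monoculture. The stromal sum goes from at most 2.25 CPM in monoculture to at least 24.3 CPM in MitoNegative cells. The B-cell sum is at most 685 CPM in MitoNegative cells against at least 929 CPM in monoculture. The T-cell receptor sum is 14487 to 16522 CPM in monoculture and lower, 12704 to 13259 CPM, in MitoNegative cells.

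Interferon-stimulated genes, the antiviral set switched on through the type I interferon receptor, were the list with the largest share of rises. Of 40 tested, 36 were higher and 1 lower, 13 of the rises past 2-fold, and the median log2 fold change was 1.84. The promoters of 3 of them are shown because they hold the core of the interferon-stimulated response element, where interferon regulatory factors bind. Searched as GAAANNGAA on both strands, this core was found in 14 of the 24 risen members with a promoter in the RefSeq table (58.3%). It was in 9.76% of all 27025 genes of that table and in 8.62% of the tested genes found there. It was also in 2 of the 3 members that did not pass and have a promoter there (66.7%). The windows lie around the gene's start and come from RefSeq on GRCm38.p6, written 5′ to 3′ with matches in capitals: Rsad2 at chr12:26456403-26456702 (minus strand), Isg15 at chr4:156200769-156201068 (minus strand) and Ifit1 at chr19:34640639-34640938 (plus strand).
Rsad2: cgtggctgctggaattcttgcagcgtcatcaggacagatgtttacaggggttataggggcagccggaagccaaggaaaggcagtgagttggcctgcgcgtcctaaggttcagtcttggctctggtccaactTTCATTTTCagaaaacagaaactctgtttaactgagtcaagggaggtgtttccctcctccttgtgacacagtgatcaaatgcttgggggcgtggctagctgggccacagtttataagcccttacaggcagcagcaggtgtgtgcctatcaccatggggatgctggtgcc
Isg15: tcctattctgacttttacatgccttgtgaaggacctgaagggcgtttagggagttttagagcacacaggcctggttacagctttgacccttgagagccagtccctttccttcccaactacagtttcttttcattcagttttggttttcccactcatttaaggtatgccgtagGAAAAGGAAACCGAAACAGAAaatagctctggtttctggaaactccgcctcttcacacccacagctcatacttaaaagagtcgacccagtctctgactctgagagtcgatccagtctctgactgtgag
Ifit1: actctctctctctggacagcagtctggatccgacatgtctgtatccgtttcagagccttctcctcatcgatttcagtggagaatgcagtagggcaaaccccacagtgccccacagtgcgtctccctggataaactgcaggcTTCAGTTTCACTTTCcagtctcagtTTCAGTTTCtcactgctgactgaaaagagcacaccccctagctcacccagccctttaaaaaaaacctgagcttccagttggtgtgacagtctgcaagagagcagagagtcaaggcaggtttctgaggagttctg
Isg15 and Ifit1 each have 3 overlapping or neighbouring matches and Rsad2 has 1. A match is a description of the letters and shows no binding.

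Rsad2, which encodes the antiviral enzyme viperin, had 5.31, 3.56 and 4.27 CPM in monoculture and 246, 104 and 77.8 CPM in MitoNegative cells, a log2 fold change of 5.02 ± 0.734 (adjusted p = 0.00209). Isg15, a ubiquitin-like modifier named for its promoter after the values were seen, had 10.1, 8 and 9.51 CPM against 252, 119 and 91.2 CPM, a log2 fold change of 4.07. Mx1, a dynamin-like GTPase against viruses, had 3.23, 2.31 and 1.64 CPM against 93.2, 40.6 and 47.6 CPM (4.66 ± 0.597). The groups did not overlap in any of the 3 genes, which the naming rule required of Rsad2 and Mx1. The MitoNegative library of letter B was the highest each time. That held for 36 of the 36 risen members: within letters, their median log2 ratio of MitoNegative cells to monoculture was 2.35 for B, 1.83 for C and 1.51 for D. Ifi44 (5.67), Oasl2 (5.35) and Mx2 (5.31) had the largest fold changes of the list, from means under 1 CPM in monoculture. Ly6e, a membrane protein of lymphocytes, was the member that fell (-0.45 ± 0.119; adjusted p = 0.109 without the libraries of letter D). The Oas, Ifit and Gbp genes have near-identical copies between which counts may be split.

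Among the 36 risen interferon-stimulated genes were 3 components of the interferon pathway itself, named after their values were seen. Stat2 rose by 1.23, Irf9 by 0.34 and Irf7 by 2.13 on the log2 scale. The pathway kinase Jak1 was called lower in the main fit. Among the fits run for single genes, that call was lost only without the libraries of letter B (log2 fold change -0.27, adjusted p = 0.0603). Of 27 guanylate-binding proteins, immunity-related GTPases and class I presentation genes, which answer to interferon-gamma, 14 were higher and none lower, 1 past 2-fold. Gbp5 had 84.6, 85.6 and 82 CPM in monoculture and 180, 183 and 156 CPM in MitoNegative cells (1.04 ± 0.078), without overlap. Leaving out all libraries of letter C left 15 called interferon-stimulated genes (14 higher), without Rsad2 (adjusted p = 0.0534), Ifi44 (0.0697) or Oasl2 (0.0929), and left 7 of the interferon-gamma list.

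**Figure D4:**
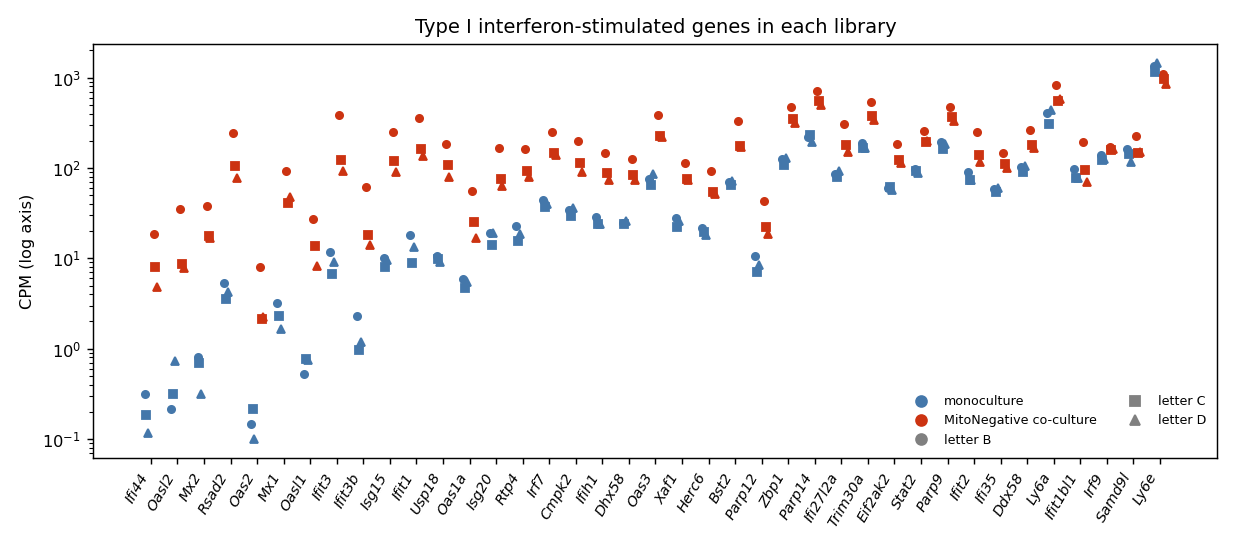
CPM on a log axis of type I interferon-stimulated genes, 1 of the 40 tested being left out of the plot, in the 3 monoculture and 3 MitoNegative libraries, with marker shape giving the letter. The MitoNegative library of letter B is the highest in each risen gene plotted, and Ly6e at the far right is the 1 that fell.

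Targets of p53, the transcription factor that halts the cycle or triggers death after stress, also rose: 24 of 34 tested were higher and 5 lower, 10 of the rises past 2-fold. Cdkn1a, which encodes the p21 inhibitor of cyclin-dependent kinases, had 3.52, 5.06 and 5.37 CPM in monoculture and 107, 107 and 111 CPM in MitoNegative cells. The log2 fold change was 4.54 ± 0.147 (adjusted p = 3.3e-08), a 23.3-fold difference, and the MitoNegative libraries lay close together. Phlda3, an inhibitor of Akt signalling, had 8.55, 8.35 and 8.73 CPM against 51.3, 50.5 and 52.9 CPM (2.59 ± 0.0594). Psrc1, a spindle protein, had 11.1, 13.9 and 16.2 CPM against 73.5, 80 and 90.1 CPM (2.56 ± 0.124). Plk2, a stress kinase, rose by 2.85 and Pmaip1, which encodes the death protein Noxa, by 1.32. None of these overlapped between groups, which the naming rule required of Cdkn1a. Outside the list, the p53-induced noncoding RNA Trp53cor1, named after its values were seen, had a log2 fold change of 3.65. The falling members included Sesn1, a stress-induced brake on mTORC1, with 138, 125 and 121 CPM in monoculture and 40, 46.9 and 45.2 CPM in MitoNegative cells (-1.54 ± 0.0711), Sfn (-0.97) and the DNA repair gene Ddb2 (-0.67). Trp53 itself was lower by a log2 fold change of -0.25. Of the 10 rises past 2-fold, 8 were above 7.45 CPM in MitoNegative cells.

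The BCL2 family, which sets the threshold for apoptosis, showed 5 of 17 members higher and 3 lower: with Noxa, Bax rose by 0.79 and Bcl2l2 by 0.59, and Bnip3l fell by 0.46 on the log2 scale. Without the libraries of letter B, 3 were higher and 2 lower. Of 23 G1 cyclins, kinases and their inhibitors, 6 were higher and 6 lower. The D-type cyclins Ccnd2 (0.79) and Ccnd3 (0.72) rose together with Cdkn1a, and the inhibitors Cdkn1b (-0.46) and Cdkn2c (-1.30), the antiproliferative Btg2 (-0.99) and the kinase Cdk2 (-0.62) fell. Cdkn1b did not pass without the libraries of letter C (adjusted p = 0.0934).

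Genes of cytotoxic effector cells were higher. Of 24 granzyme, perforin and granule genes, 12 were higher and 1 lower, 5 of the rises past 2-fold. Gzmb, the main death-inducing granule protease, had 21.3, 52.5 and 38.6 CPM in monoculture and 568, 430 and 500 CPM in MitoNegative cells, a log2 fold change of 3.74 ± 0.352 (adjusted p = 0.000191). Prf1, the pore-forming protein of the same granules, had 35.4, 28.6 and 41.9 CPM against 106, 110 and 120 CPM (1.66 ± 0.127). Serpinb9, which shields the cell from its own granzyme B, rose by 1.67, and Gzmc by 2.52. No overlap between groups was seen in any of the 4 genes, which were named as the passing rises of largest change in their list. Srgn, the proteoglycan that packs the granules, was the 1 fall (-0.23); it did not pass without MitoNegative replicate C, MitoNegative replicate D or monoculture replicate D, nor without the libraries of letter C or D.

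Among 17 T-cell cytokines and chemokines, 8 were higher and 1 lower. Ifng, the effector cytokine interferon-gamma, had 5.23, 3.46 and 3.43 CPM in monoculture and 72.6, 87.5 and 53.7 CPM in MitoNegative cells (4.14 ± 0.482, adjusted p = 0.000749), with groups far apart. Lif, a cytokine of the interleukin-6 family, had 0.508, 1.66 and 0.994 CPM against 10.7, 11.9 and 13.7 CPM (3.52 ± 0.312), and Csf1, the macrophage growth factor, rose by 2.89. Lif and Csf1 are also on the stromal cytokine list. Ccl5, a chemokine stored by memory T cells, fell, with 114, 65.6 and 116 CPM against 34.1, 39.6 and 36.1 CPM (-1.43 ± 0.233; adjusted p = 0.0532 without the libraries of letter B). Il2 did not pass, at 0.0328, 0.0333 and 0.116 CPM against 0.134, 0.2 and 0.0445 CPM.

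Effector transcription factors followed: 9 of 17 were higher and 1 lower. Bhlhe40, a repressor needed for cytokine production, had 65.2, 85.9 and 69.5 CPM in monoculture and 454, 546 and 519 CPM in MitoNegative cells (2.78 ± 0.117, adjusted p = 5.59e-08). Hif1a, the oxygen-regulated factor, rose by 1.20, Zeb2 by 1.19 and Prdm1, which encodes Blimp-1, by 1.10. Bhlhe40 was past 2-fold, and the others named were not. Stat4, which carries interleukin-12 signals, was slightly lower (-0.22); it did not pass without MitoNegative replicate C or D, nor without the libraries of either letter.

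**Figure D5:**
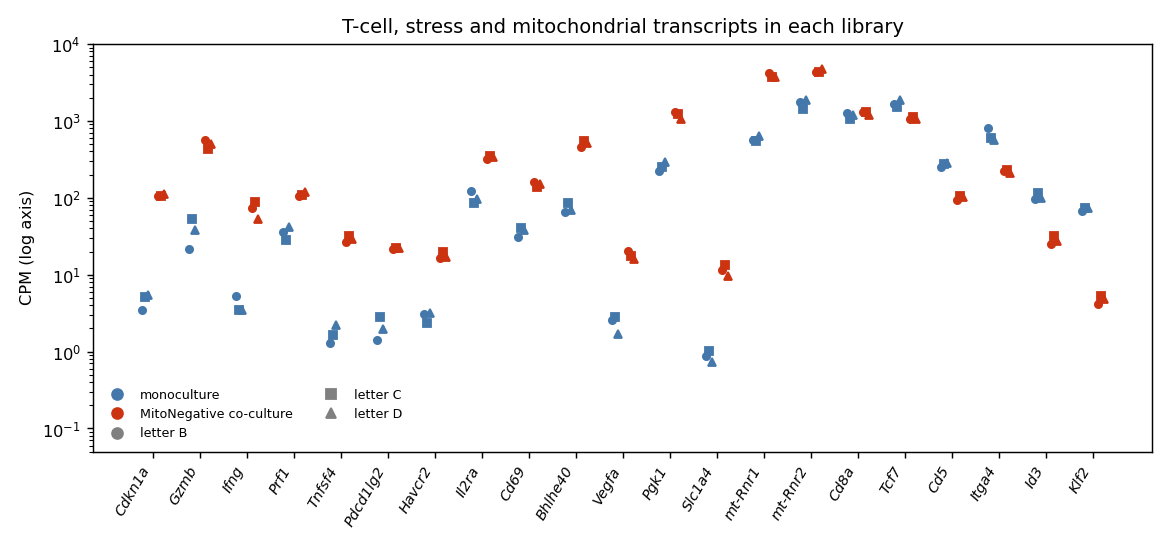
CPM on a log axis of 21 genes in the 3 monoculture (blue) and 3 MitoNegative (red) libraries, with marker shape giving the letter. Cdkn1a at the left lies at 3.52 to 5.37 CPM in monoculture and 107 to 111 CPM in MitoNegative cells, Klf2 at the right at 67.5 to 74.4 and 4.13 to 5.31 CPM, and Cd8a is the 1 gene whose groups overlap.

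Activation markers rose in part. Of 24 immediate early and antigen receptor response genes, 13 were higher and 2 lower. Cd69, an early activation antigen that also retains cells in tissue, had 30.8, 40.8 and 37.7 CPM in monoculture and 158, 139 and 151 CPM in MitoNegative cells (2.04 ± 0.101). The AP-1 subunits Fosl2 (2.40) and Fosb (2.89) rose past 2-fold, as did Cd83 (1.98). Egr2 (-1.04), Egr3 (-1.10) and Nr4a1 (1.17), which answer to the T-cell receptor and were named after their values were seen, did not pass, while Nfatc1 (-0.53) and Zfp36 (-1.20), which destabilises cytokine mRNA, fell. Of 15 feedback regulators of the ERK pathway 10 were higher and 1 lower, Dusp4 most (2.49 ± 0.4; adjusted p = 0.0508 without the libraries of letter D), and Rasgrp1, which feeds that pathway, fell (-0.69). Of 20 NF-kappaB genes 12 were higher and 2 lower, led by Bcl3 (1.46), Icam1 (1.34), Nfkbiz (1.12) and Relb (1.03).

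Costimulatory receptors and ligands split, with 11 of 22 higher and 6 lower. Tnfsf4, the ligand OX40L, had 1.28, 1.63 and 2.19 CPM in monoculture and 26.5, 31.4 and 29.1 CPM in MitoNegative cells (4.09 ± 0.154, adjusted p = 4.87e-08). Its receptor Tnfrsf4 had 6.33, 12.1 and 9.31 CPM against 31.1, 36.8 and 36.6 CPM (1.92 ± 0.201). Both rose without overlap, as did Cd80 (1.37). Slamf6, a receptor of stem-like T cells, fell past 2-fold (-1.32 ± 0.0769), and Tnfsf14 (-1.03) and Cd226 (-0.73) fell too.

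Of 19 inhibitory receptors and exhaustion regulators 9 were higher and 1 lower. Pdcd1, which encodes PD-1, had 30.9, 39.7 and 30.1 CPM in monoculture and 101, 121 and 89.9 CPM in MitoNegative cells (1.63 ± 0.196, adjusted p = 0.000353). Its ligand Pdcd1lg2 had 1.41, 2.79 and 1.97 CPM against 21.3, 22.5 and 21.9 CPM (3.41 ± 0.192), and Havcr2, the receptor TIM-3, had 3.1, 2.36 and 3.13 CPM against 16.6, 19.5 and 17.1 CPM (2.63 ± 0.276). All 3 rose without overlap, and so did Entpd1, the ectonucleotidase CD39 (1.60). Tox, the regulator of the exhausted state, did not pass, at 71.7, 74 and 73.8 CPM against 70.5, 67.2 and 49.8 CPM (-0.23 ± 0.112, adjusted p = 0.138; 0.0414 with the letter as a block). Vsir, the inhibitory ligand VISTA, fell (-0.38), a call that was lost without MitoNegative replicate C and without the libraries of letter B.

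Receptors for cytokines rose more often than they fell, 18 of 31 against 4. Il2ra, the high-affinity chain of the interleukin-2 receptor, had 122, 85 and 95.9 CPM in monoculture and 318, 350 and 336 CPM in MitoNegative cells (1.73 ± 0.146), and Cish, a feedback inhibitor of STAT5 signals, had 19.1, 16 and 14.8 CPM against 65.5, 66.3 and 73.5 CPM (2.04 ± 0.0905). Il18rap (1.56) and Il12rb2 (1.47), chains of the interleukin-18 and interleukin-12 receptors, rose as well. Il12rb2 overlaps Serbp1 on the other strand, and whether counting used strand is not given in the sources used here. Il17ra (-0.77) and Il6st (-0.70), of the interleukin-17 and interleukin-6 receptors, fell. Among 12 chemokine receptors 7 were higher and 1 lower: Ccrl2, an atypical receptor that binds a chemoattractant without signalling, rose (3.16), and Cxcr3, which guides cells to inflamed tissue, had 177, 138 and 209 CPM in monoculture and 87.1, 73.9 and 77.8 CPM in MitoNegative cells (-1.13 ± 0.134). Without the libraries of letter D, 4 of these receptors were higher and 1 lower.

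Genes of naive and recirculating T cells were lower. Of 16 naive and stem-like transcription factors 11 were lower and 2 higher, and of 12 lymphoid homing and survival receptors 7 were lower and 1 higher. Klf2, which keeps T cells quiescent and recirculating, had 67.5, 72.6 and 74.4 CPM in monoculture and 4.13, 5.31 and 4.82 CPM in MitoNegative cells, a log2 fold change of -3.91 ± 0.191 (adjusted p = 1.07e-06). It was the largest fall among the named genes. Id3, an inhibitor of E proteins kept on in stem-like cells, had 96.8, 116 and 98.1 CPM against 24.8, 31.5 and 27.7 CPM (-1.89 ± 0.145). Tcf7, which encodes TCF1, had 1651, 1510 and 1868 CPM against 1059, 1130 and 1058 CPM (-0.63 ± 0.102), and stayed abundant. Ets1 fell by a similar amount (-0.65), and Bcl6 (0.67) and Zeb1 (0.63) rose. In the fit without letter C, 6 of these factors were lower and 2 higher.

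Among receptors, Itga4, the integrin chain for entry into tissue and marrow, fell most, with 815, 598 and 556 CPM in monoculture and 222, 232 and 207 CPM in MitoNegative cells (-1.58 ± 0.123). S1pr1, the exit receptor that Klf2 induces, had 155, 158 and 146 CPM against 65, 68 and 70.3 CPM (-1.18 ± 0.0771). The groups did not overlap in either gene. Within the same list Gpr183 rose by 0.62, while Ccr7 (415, 409 and 483 CPM against 479, 541 and 501 CPM) and Il7r (596, 467 and 459 CPM against 439, 395 and 492 CPM), named after their values were seen, did not pass.

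The T-cell receptor complex itself was lower by small amounts: 17 of 20 members fell, none rose, and the median log2 fold change was -0.29. Cd5, a negative regulator tuned by receptor signal strength, had 248, 275 and 285 CPM in monoculture and 93.8, 107 and 101 CPM in MitoNegative cells (-1.42 ± 0.0935), and Cd6 fell by 0.85, Trac by 0.47 and Lck, the coreceptor kinase, by 0.46 on the log2 scale. Cd8a (0.11 ± 0.0832, adjusted p = 0.313) did not pass. Ptprc, the phosphatase CD45, had 2808, 2531 and 2478 CPM against 2248, 2236 and 2263 CPM and lay at the threshold (-0.21 ± 0.0787, adjusted p = 0.0507; 0.0487 with the letter as a block). Without MitoNegative replicate D, 10 members of the complex were lower, and without the libraries of any 1 letter 11 were.

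Adhesion and cytoskeletal genes, which form the contacts and membrane tubes between cells, moved in both directions. Of 47 nanotube, filopodia and cytoskeleton genes 9 were higher and 21 lower. Actn1, which crosslinks actin at adhesions, had 771, 562 and 674 CPM in monoculture and 252, 282 and 261 CPM in MitoNegative cells (-1.34 ± 0.112), and Flna, a further crosslinker, had 515, 504 and 614 CPM against 240, 277 and 286 CPM (-1.02 ± 0.0969). Cdc42ep3 (-0.92) and S100a10 (-0.89) fell as well. Myo10, the motor of filopodial tips, rose, with 5.03, 6.34 and 5.78 CPM against 15.4, 18.6 and 19.3 CPM (1.64 ± 0.156), as did the tubulin Tubb6 (1.95). Of 35 integrins and partners 9 were higher and 11 lower. Icam1, a ligand of LFA-1, rose from 70.5, 72.2 and 74.8 CPM to 188, 192 and 171 CPM (1.34 ± 0.0735), while Icam2, a related ligand of resting cells, fell from 34.4, 31.8 and 37.8 CPM to 13.3, 12.5 and 11.3 CPM (-1.49 ± 0.0883). Cd9 (-1.12) and Itga2 (-1.13) fell and Itgb3 (1.11; adjusted p = 0.0528 without the libraries of letter D) rose. Of the cytoskeleton genes, 6 were higher and 12 lower without the libraries of letter C.

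The ATF4 list, the response to amino acid shortage and other triggers of eIF2 alpha phosphorylation, had 23 of 36 members higher and 3 lower, 14 of the rises past 2-fold. Promoters of 2 members are shown because they hold a CEBP-ATF response element, to which ATF4 binds. Searched as TGATGNAAN on both strands, it was found in 7 of the 19 risen members with a promoter in the table (36.8%). It was in 2 of the 9 that did not pass (22.2%). Among all genes of the table the share was 4.5%, and among the tested genes found there 2.79%. Written as above, they are Slc1a4 at chr11:20332664-20332963 (minus strand) and Asns at chr6:7693160-7693459 (minus strand).
Slc1a4: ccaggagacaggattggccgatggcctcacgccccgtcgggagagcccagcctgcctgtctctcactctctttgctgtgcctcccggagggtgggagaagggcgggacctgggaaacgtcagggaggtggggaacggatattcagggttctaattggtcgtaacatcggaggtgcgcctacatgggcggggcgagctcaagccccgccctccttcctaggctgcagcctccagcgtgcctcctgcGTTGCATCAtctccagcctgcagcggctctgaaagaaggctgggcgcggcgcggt
Asns: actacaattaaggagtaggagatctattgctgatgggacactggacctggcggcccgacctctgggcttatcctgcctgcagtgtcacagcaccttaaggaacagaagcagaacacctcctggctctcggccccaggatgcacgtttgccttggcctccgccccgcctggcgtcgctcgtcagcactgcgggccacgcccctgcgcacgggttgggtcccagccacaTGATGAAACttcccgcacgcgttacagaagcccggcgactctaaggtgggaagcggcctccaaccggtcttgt
Slc1a4, a transporter of alanine and serine, had 0.869, 1.01 and 0.729 CPM in monoculture and 11.6, 13.5 and 9.47 CPM in MitoNegative cells (3.72 ± 0.261, adjusted p = 3.83e-06). Asns, asparagine synthetase, named for its promoter after the values were seen, had 10.8, 10.5 and 12.3 CPM against 27.9, 30.5 and 20.3 CPM (1.23 ± 0.193). Slc7a5, the large neutral amino acid transporter that T cells switch on when activated, had 35.9, 50.8 and 45.3 CPM against 151, 175 and 122 CPM (1.76 ± 0.243). The groups did not overlap in any of the 3 genes. Atf4, also named after its values were seen, had 66.7, 77.3 and 57.7 CPM against 179, 186 and 172 CPM (1.41). Psph (-0.39) and Slc38a1 (-0.36), of serine synthesis and glutamine uptake, fell. Of the 14 rises past 2-fold 10 were at or below 7.45 CPM in MitoNegative cells, the range of the stromal markers, and the MitoNegative library of letter C was the highest in 19 of the 23 risen members.

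Of 20 aminoacyl-tRNA synthetases, which ATF4 also induces, 8 were higher and 2 lower. Cars, for cysteine, had 17.7, 17.2 and 15.8 CPM in monoculture and 38.4, 44.1 and 37.8 CPM in MitoNegative cells (1.25 ± 0.0993), and Aars (0.61) and Mars (0.58) rose less. In fits without letter B 5 synthetases were higher, and without letter C 4, with none lower. The unfolded protein response changed in fewer members, 8 of 27 higher and 1 lower. Eif2ak3, which encodes PERK, a kinase of eIF2 alpha, rose past 2-fold, from 69.3, 85.7 and 57.4 CPM to 247, 276 and 283 CPM (1.92 ± 0.121), and the chaperone Hspa5 rose by 0.59, while Dnajc3, an inhibitor of PERK, fell (-0.57). Of 20 cytosolic heat shock proteins 2 were higher and 3 lower, 8 passed with the letter as a block, and 2 without the libraries of letter C. TGACGTGG, the unfolded protein response element, was in none of the 7 promoters of risen members in the table. It was in 0.714% of all genes' promoters and in 1.04% of those of tested genes.

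Of 29 glycolysis and glucose transport genes 16 were higher and 2 lower. Pgk1, phosphoglycerate kinase, had 222, 255 and 292 CPM in monoculture and 1308, 1227 and 1066 CPM in MitoNegative cells (2.23 ± 0.11, adjusted p = 1.52e-07). Aldoa, aldolase A, had 397, 406 and 456 CPM against 1205, 1133 and 1058 CPM (1.43 ± 0.0784), and Hk2, the inducible hexokinase, had 15.6, 21.1 and 16.6 CPM against 44, 48.4 and 42.6 CPM (1.34 ± 0.15). The groups stood apart in all 3 genes. Gapdh rose by 1.22, though it overlaps Iffo1 on the other strand. Pdk1, the kinase that holds pyruvate out of the mitochondrion, fell (-0.59 ± 0.119; adjusted p = 0.0753 without the libraries of letter D). Of 27 targets of hypoxia-inducible factor 12 were higher and 2 lower, with Vegfa, the angiogenic factor, at 2.56, 2.79 and 1.67 CPM against 20.1, 17.6 and 16.1 CPM (2.94 ± 0.176) and Nos2, inducible nitric oxide synthase, at 0.18, 0.233 and 0.149 CPM against 5.46, 5.66 and 3.36 CPM (4.67 ± 0.302). Vegfa is on the stromal cytokine list as well. Nos2 stayed below 7.45 CPM, the level of the most abundant of the nearly silent stromal markers. The part of stromal RNA in these 2 rises was not tested.

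RNA of the mitochondrial genome changed unevenly. The 12S ribosomal RNA, mt-Rnr1, had 565, 544 and 630 CPM in monoculture and 4144, 3694 and 3682 CPM in MitoNegative cells, a log2 fold change of 2.73 ± 0.0937 (adjusted p = 1.19e-08). The 16S RNA, mt-Rnr2, had 1741, 1448 and 1893 CPM against 4271, 4287 and 4673 CPM (1.38 ± 0.119). Both ranges stood apart, and together these RNAs made up 0.224 ± 0.0192% (SD, n = 3) of counts in monoculture and 0.825 ± 0.0338% (SD, n = 3) in MitoNegative cells. The exact permutation test of that share cannot go below p = 0.1 with 3 against 3, which is the value it gave (adjusted p = 0.275 over 11 shares). Ribosomal RNA was depleted during library making, and the part of that step was not tested. Of the 13 protein genes, 4 were higher and 1 lower. mt-Co1, a subunit of cytochrome oxidase, had 9845, 8944 and 8911 CPM against 13669, 14562 and 15013 CPM (0.64 ± 0.11), and mt-Cytb, of complex III, had 2453, 2242 and 2314 CPM against 1527, 1834 and 1878 CPM (-0.42 ± 0.102; adjusted p = 0.101 without the libraries of letter B). Scaled by gene length (TPM), mt-Co1 was the more abundant of these at a mean of 27361 TPM in MitoNegative cells, against 11785 for mt-Rnr1 and 8180 for mt-Rnr2. Leaving out monoculture C, monoculture D or MitoNegative C left 3 protein genes called, and leaving out MitoNegative D left 2.

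Nuclear genes for mitochondria moved little. Of 79 respiratory chain subunits 5 were higher and 22 lower, none past 2-fold, with a median log2 fold change of -0.11. Ndufa4, a subunit of cytochrome oxidase, fell most, with 57.9, 61.5 and 68.1 CPM in monoculture and 33.4, 32.9 and 33.9 CPM in MitoNegative cells (-0.90 ± 0.0755), and Atp5a1, the alpha subunit of ATP synthase, had 679, 722 and 843 CPM against 558, 580 and 542 CPM (-0.42 ± 0.0843). Cox7c rose by 0.38. Of 77 mitochondrial ribosomal proteins 10 were higher and 12 lower, and of 35 genes of mitochondrial replication, biogenesis and dynamics 6 were higher and 8 lower, including Polg, the mitochondrial DNA polymerase (-0.39), and Trak2, an adaptor for transport along microtubules (-0.35). In mitophagy and autophagy 3 of 26 were higher and 7 lower: the receptor adaptor Sqstm1 rose by 0.47, and Gabarapl2 (-0.63) and Bnip3l (-0.46) fell. Of 28 citric acid cycle genes 3 were higher and 8 lower (Idh1 -0.93, Me2 -0.72), and of 28 genes of fatty acid oxidation 9 were higher and 8 lower (Acsl3 0.78, Acaa2 -0.44). Several of these counts rested on 1 library or letter. Without MitoNegative C or MitoNegative D 17 respiratory chain genes passed, without letter B 17 and without letter C 13. For mitochondrial ribosomal proteins 14 passed without MitoNegative C, 11 without letter B and 4 without letter C. The biogenesis list gave 7 without MitoNegative B or MitoNegative C, 8 without monoculture B or monoculture C, 9 without MitoNegative D, 6 without letter B and 3 without letter C. The citric acid cycle list gave 7 without MitoNegative C and 6 without letter B or letter C, the mitophagy list 5 without letter B and the fatty acid oxidation list 10 without letter C.

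Of 37 genes of cholesterol and fatty acid synthesis 17 were lower, 5 were higher and 15 did not pass. Elovl6, a fatty acid elongase, fell past 2-fold, from 82.2, 65.6 and 70 CPM to 25.4, 25.8 and 31.4 CPM (-1.40 ± 0.124), and Acat2, of sterol synthesis, by 0.81 on the log2 scale. Of 8 genes of sterol efflux 5 were lower and 1 higher, among them the cholesterol exporter Abca1 (-0.98) and Apoe (-1.43). The sterol response element TCACCCCAC was in 1 of 13 promoters of the lower synthesis genes in the table. It was in 0.614% of all genes' promoters and in 0.681% of those of tested genes. Leaving out letter C, 8 synthesis genes passed, each of them lower, and without those of letter D 1 was higher and 13 lower. Of 26 antioxidant genes under NRF2 9 were higher and 8 lower: Osgin1, an oxidative stress response gene, rose past 2-fold (2.65 ± 0.126), as did Hmox1, heme oxygenase (1.77), and Txnrd1 (-0.57) and Cat, catalase (-0.48), fell.

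The cell cycle list had a median log2 fold change of -0.83, and the number of its members called depended on the fit. In the main fit 1 of 38 genes was higher and 8 lower, and with the letter as a block 3 were higher and 30 lower. Mki67, the proliferation antigen Ki-67, had 64.2, 132 and 136 CPM in monoculture and 19.1, 39.2 and 66.3 CPM in MitoNegative cells. The ranges overlapped, although each letter's MitoNegative library was below its monoculture library (-1.41 ± 0.656, adjusted p = 0.14; -1.53 with the block, adjusted p = 0.000893). Mcm6, of the replicative helicase, fell in the main fit too, from 151, 161 and 177 CPM to 105, 109 and 112 CPM (-0.59 ± 0.0645). Without MitoNegative D 5 genes of the list passed, without letter B 15 and without letter C 2, in each case lower. Outside the list, of which no member passed the 2-fold test, Cdc25b, a phosphatase that starts mitosis, fell past 2-fold, from 95.3, 112 and 104 CPM to 16.3, 19.2 and 25.5 CPM (-2.35 ± 0.292).

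Of 81 cytosolic ribosomal proteins 2 were higher in edgeR, 7 with scaling by total counts, 6 with the letter as a block, 37 without monoculture D and 37 without the libraries of letter D; 1 passed without monoculture B, monoculture C, MitoNegative C, letter B or letter C. Of 32 genes of the MYC network 9 were higher and 3 lower: Myc had 99.7, 113 and 112 CPM in monoculture and 133, 148 and 152 CPM in MitoNegative cells (0.42 ± 0.0761), its antagonist Mxd1 had 28.5, 30 and 28.2 CPM against 120, 123 and 117 CPM (2.06 ± 0.076), and Odc1, of polyamine synthesis, had 127, 155 and 149 CPM against 423, 419 and 400 CPM (1.53 ± 0.0759). Mxd1 thus had the larger fold change. Of the network, 4 genes were higher and 2 lower without letter C.

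Lists for signals that stromal cells are known to send were mixed. Of 28 genes of prostaglandin, adenosine and cAMP response 13 were higher and 5 lower, with Rgs1, a brake on chemokine receptor signals, at 31.2, 33.4 and 21.4 CPM in monoculture and 158, 140 and 144 CPM in MitoNegative cells (2.36 ± 0.159), and the kinase subunit Prkacb falling by 0.71. For TGF-beta and tissue residency 7 of 21 were higher and 6 lower, with P2rx7, an ATP receptor of resident cells, rising by 2.41, and the receptor Tgfbr1 (-0.67) and Runx1 (-0.66) falling. Of 12 Notch genes 3 were higher and 5 lower (Maml2 -0.72), of 12 Wnt genes 2 and 1, the 1 being Axin2, a feedback target (16.3, 13.7 and 14.7 CPM against 5.7, 4.91 and 6.97 CPM, -1.35 ± 0.172). Of 13 glucocorticoid targets 6 were higher and 2 lower, and of 9 genes of the aryl hydrocarbon receptor and tryptophan catabolism 3 were higher and none lower. Among those 9, 1 had no monoculture count and so could not be lower. The glucocorticoid count was 5 without monoculture B and 3 without letter C, and the Wnt count 6 without monoculture D and 5 without letter D. Of 12 serpins 9 were higher and none lower: Serpine2, protease nexin-1, had 18.2, 22.8 and 17.2 CPM in monoculture and 159, 197 and 170 CPM in MitoNegative cells (3.18 ± 0.147, adjusted p = 4.92e-07). Of the 9 risen serpins 4 were at or below 7.45 CPM in MitoNegative cells, the level of the most abundant of the nearly silent stromal markers, and of the 6 past 2-fold 3 were.

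Among the largest changes outside these lists, Fam183b, a gene linked to cilia, rose from 0.147, 0.116 and 0.199 CPM to 7.47, 4.67 and 4.92 CPM (5.19 ± 0.285). Pcsk1, a prohormone convertase, fell from 62.8, 43.5 and 65 CPM to 5.04, 3.85 and 5.75 CPM (-3.55 ± 0.193, adjusted p = 1.61e-06), the second largest drop from a level above 40 CPM after that of Klf2. Rnf144a, an E3 ubiquitin ligase, had 39.7, 39.7 and 49.7 CPM against 8.42, 8 and 9.43 CPM (-2.32 ± 0.144). Neither overlapped between groups, which the rule for the largest changes required. Chst3 (-2.60), a sulfotransferase, and Rap1gap2 (-2.68), which switches off the small GTPase Rap1, fell from lower levels. Per length, the largest gains after those of mitochondrial RNAs were in Pgk1, Gzmb, Plac8 and Gapdh, and the largest losses were in Trbc2, Tmsb4x and mt-Cytb. The call of Trbc2, a T-cell receptor constant segment, was lost without MitoNegative B, without MitoNegative D and without the libraries of any 1 letter.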

How the data were processed

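RNA-seq counts per gene were taken from the authors' deposited table of raw counts, which holds 55421 genes after 99 spike-in rows without a count were set aside. Per the submitters' processing notes, bcl2fastq, cutadapt, STAR 2.7, featureCounts, DESeq2 and GRCm38 were used; the strand setting of the counting is not given in the sources used here. Genes were filtered with edgeR's filterByExpr (minimum count 10, minimum total 15), which left 15711, and scaled by TMM. edgeR 4.0.16 in R 4.3.3 fitted its robust quasi-likelihood model to all 9 libraries by group, so that the spread was shared, and MitoNegative cells were compared with monoculture. A gene was called at a Benjamini-Hochberg adjusted p under 0.05 over all genes; a second test was against a fold change of 2. SE is that of the log2 fold change.

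The members and gene lists were chosen with earlier results of these data known. Genes were named by rule. The first part took the 12 largest rises and falls past 2-fold with a mean log2 CPM of at least 1. It also required that the groups not overlap, so the absence of overlap in those genes was fixed beforehand. The other parts were the 8 largest length-scaled differences each way, up to 4 members per list and direction, and 16 marker genes. List members had to pass the test and were taken by largest change, so lack of overlap in them adds no separate support. Other genes are said to be chosen after their values were seen. Single-gene results of 3 list members are not reported here. Same-letter libraries deviated together (r = 0.349 for B, 0.211 for C and 0.118 for D, across 15711 genes, which are not independent replicates). The letter therefore entered as a block in alternative fits, on all 9 libraries and on the 6 compared. The main fit left the letter out. Calls, p-values and SE are from that unpaired fit unless another fit is named. Other alternatives were other scalings, no filter, DESeq2 1.42.0, limma voom (limma 3.58.1), the 6 libraries alone and leaving out each library; leaving out every library of a letter was added after seeing the data. On simulated counts for 15711 genes of this comparison, 90% of genes changed 2-fold and 68% of those changed 1.5-fold were recovered. Of the calls, 7.29% were false. That simulation changed 200 genes, each with a mean above 1 CPM, and held no letter effect. The data had 6110 called genes and deviations shared by letter, so these rates may not carry over to them.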

Additional observations from a re-analysis of the deposited data

How the results depend on the processing

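Of 315 named genes, 311 passed. Those 311 kept their sign, and 216 of them passed, in each fit run for single genes: RLE and total-count scaling, DESeq2, the replicate block on 9 libraries, and leaving out each library or each letter. Fits with no filter, limma voom and the 6 libraries alone were run for the overall counts, not for single genes or single lists. The 6110 changed genes became 7062 with the replicate block, 5572 with the block on the 6 libraries alone, 6302 with DESeq2 and 4921 to 6037 when 1 library was left out. Without the libraries of letter C 3495 genes changed, 3436 of them shared with the full set. The 622 genes past 2-fold became 346 with limma voom, 790 with the replicate block, 673 with the block on the 6 libraries, 399 to 525 when 1 library was left out (399 without monoculture replicate B), and 359, 310 and 403 without letters B, C and D. Calls in the lists numbered 690, 804 with the block. With the block cell cycle calls went from 9 to 33, killer lectin-like receptors from 4 to 8, ribosomal proteins from 2 to 6 and Wnt genes from 3 to 6. The share of counts held by the whole stromal marker list differed by -0.0019 percentage points and ranged from -0.0116 to 0.00575 when 1 library was left out, with the sign changed without monoculture replicate B (0.000193) and without monoculture replicate D (0.00575). For stromal cytokines the range was -0.000285 (without monoculture replicate C) to 0.00199, and the cause was not tested. With 3 libraries a group, small changes can be missed, so an uncalled gene is not shown to be equal.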

Other observations

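Immunoglobulin gene segments were lower alongside the B-cell markers. The counts of this paragraph are to be read against 20.6% of all genes tested higher and 18.3% lower. Of 59 immunoglobulin variable segments tested 40 were lower and none higher, and of 4 joining segments 4 were lower. Among 11 constant segments 5 were lower and 2 higher. The constant segment Ighg2c, chosen after its values were seen, went the other way, with 0.656, 0.399 and 0.215 CPM in monoculture and 1.65, 2.84 and 2.59 CPM in MitoNegative cells (log2 fold change 2.47, adjusted p = 0.000192 by edgeR). Among T-cell receptor segments, 7 of 75 variable segments were lower and 2 higher, and 10 of 56 joining segments were lower and none higher. Neither share lower exceeded the 18.3% of all genes tested. Of 7 constant segments 4 were lower. Of 413 long intergenic noncoding RNAs 68 were higher and 57 lower.

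Replication-dependent histone genes, whose transcripts lack a poly(A) tail and are kept by ribosomal depletion, had 8 of 24 members higher and 2 lower, and without the libraries of letter C 5 higher and 1 lower. Histone genes have near-identical copies between which counts may be split. Of 14 killer cell lectin-like receptors 4 were higher, 8 with the letter as a block, 2 without monoculture replicate B or MitoNegative replicate B and 1 without the libraries of letter B.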
